A study of Arabidopsis thaliana and Ginkgo biloba and Brassica rapa with 14 samples.

Results

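The tRNA genes for the aromatic amino acids tyrosine (Tyr), tryptophan (Trp) and phenylalanine (Phe) were taken from a list of the predicted tRNA genes of Arabidopsis thaliana, as every entry whose name starts with one of these amino acids. This gave 112 of the 687 listed genes (16.3%), and they belonged to 8 of the 100 isodecoder consensus sequences, with 80 genes in 5 sequences for Tyr, 16 genes in 2 sequences for Trp and 16 genes in 1 sequence for Phe. An isodecoder consensus is a sequence that stands for a group of identical or very similar tRNA genes with the same anticodon, written here with its anticodon in DNA letters and with the genome or genomes that hold the genes: N for nuclear, C for chloroplast and M for mitochondrial. A digit after the anticodon marks a diverged minority sequence.

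The study mapped 5-methylcytosine in plant tRNAs with 14 libraries of gel purified RNA of tRNA size, 8 of bisulfite treated RNA (RBS-seq) and 6 of untreated RNA (RNA-seq). Abundance came from 1 RNA-seq library of wild type A. thaliana (Columbia) seedlings at 10 days after germination, given as reads per 1000000 reads (RPM). Methylation percentages came from 3 RBS-seq libraries of the same kind of seedling, averaged by the authors, and from 1 library each of B. rapa and G. biloba shoot apexes, T. durum flag leaf, C. taxifolia fronds and N. oculata cells. No mutant plant was analysed here, and no abundance value had a replicate.

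A tRNA carries its amino acid at the 3′ end and reads the codon with the anticodon at the tip of the opposite arm. Plant cells make separate sets of tRNAs for the cytosol and the chloroplast, while mitochondria combine tRNAs encoded in their own genome with tRNAs imported from the cytosol. Nuclear tRNA genes are transcribed by RNA polymerase III from promoter elements inside the gene, and plant nuclear genes for tRNA-Tyr and for the elongator tRNA-Met carry an intron just behind the anticodon, which is spliced out of the precursor.

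The consensus sequences of the 8 isodecoders are shown because every count and abundance below belongs to one of them. The capitals mark the anticodon.
Tyr(GTA), C, N: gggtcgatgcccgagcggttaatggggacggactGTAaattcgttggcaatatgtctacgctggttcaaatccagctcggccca
Tyr(GTA)2, M, N: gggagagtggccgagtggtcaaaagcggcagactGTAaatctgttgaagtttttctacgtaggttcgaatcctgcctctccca
Tyr(GTA)1, M, N: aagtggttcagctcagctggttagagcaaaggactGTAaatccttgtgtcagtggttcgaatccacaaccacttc
Tyr(GTA)1, N: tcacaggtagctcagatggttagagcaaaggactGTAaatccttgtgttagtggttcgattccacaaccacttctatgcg
Tyr(GTA), N: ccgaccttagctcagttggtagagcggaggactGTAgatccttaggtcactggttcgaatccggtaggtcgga
Trp(CCA), C, M, N: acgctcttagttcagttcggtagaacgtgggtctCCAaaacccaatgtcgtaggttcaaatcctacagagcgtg
Trp(CCA), N: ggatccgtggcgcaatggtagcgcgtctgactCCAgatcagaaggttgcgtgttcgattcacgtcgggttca
Phe(GAA), N: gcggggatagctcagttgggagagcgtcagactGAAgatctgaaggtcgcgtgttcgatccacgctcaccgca

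The 5 Tyr sequences shared the anticodon GTA and differed in length and in the variable region. The chloroplast-type Tyr(GTA), C, N of 84 bases and the mitochondrial-type Tyr(GTA)2, M, N of 83 bases had 15 and 14 bases between the anticodon stem and the T stem, whereas every other sequence shown above had 5. This stretch is the variable region, and the long form makes an extra arm that is also found in tRNA-Leu and tRNA-Ser. In global alignments, Tyr(GTA), C, N and Tyr(GTA)2, M, N were identical at 71.3% of aligned columns, and each was the most alike of all 100 sequences to the other. Tyr(GTA)1, M, N and Tyr(GTA)1, N were identical at 81.7% of columns. The nuclear Tyr(GTA), N was identical to Tyr(GTA), C, N at 59.1% and to Tyr(GTA)2, M, N at 60.7% of columns, and its most alike sequence was the nuclear Cys(GCA), at 74%. The organellar-type Trp(CCA), C, M, N and the nuclear Trp(CCA), N shared 54.4% of columns, less than the 67.1% that Trp(CCA), N shared with Phe(GAA), N.

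Base pairs were counted in 3 stems of the cloverleaf. All 8 had 5 of 5 possible base pairs in the anticodon stem, counting G with T as a pair. In the acceptor stem, 6 of the 8 had 7 of 7 pairs, Phe(GAA), N had 6 and Tyr(GTA)1, N had 5. The median over all 100 sequences was 7. Pairs of this stem were counted from the ends of each consensus. Tyr(GTA)1, N has more bases behind its T stem than the others shown, so that its count of 5 is uncertain. In the T stem, both Tyr(GTA)1 sequences had 4 of 5 pairs and the other 6 sequences had 5, which was also the median of the 93 sequences that could be placed. The letters GGTTCGA, a common core of the B box, which is one of the promoter elements inside nuclear tRNA genes, were searched on the strand shown. They were present in 4 of the 8 sequences, namely Tyr(GTA), N, both Tyr(GTA)1 sequences and Tyr(GTA)2, M, N. The share was 55.0% of all 100 consensus sequences and 55.2% of the 58 nuclear ones. It was 81.2% of the 16 held by both the nuclear and an organelle genome. The match is a description of letters, and its absence from Trp(CCA), N and Phe(GAA), N says only that these letters were not in the sequence.

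Gene numbers were uneven. The nuclear Tyr(GTA), N had 70 genes, the most of any isodecoder and 10.2% of all listed genes, ahead of the nuclear proline sequence Pro(TGG), N with 44 and the nuclear serine sequence Ser(AGA), N with 37. Phe(GAA), N had 16 genes and Trp(CCA), N had 13. The organellar-type sequences had few: Tyr(GTA)1, M, N had 4 genes, Tyr(GTA)2, M, N and Trp(CCA), C, M, N had 3 each, and Tyr(GTA), C, N had 2. Tyr(GTA)1, N had 1. An organellar-type Phe sequence was not in the list used here.

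The 3 families were also spread differently over the chromosomes. Of the 112 genes, 65 (58.0%) were on chromosome 1, against 175 of the other 575 listed genes (30.4%). This came from Tyr: 56 of the 70 Tyr(GTA), N genes (80.0%) lay on chromosome 1, and chromosomes 2, 3, 4 and 5 held 4, 3, 3 and 4 of them. Trp(CCA), N had 5 genes on chromosome 1, none on chromosome 2, and 2, 3 and 3 genes on chromosomes 3, 4 and 5. Phe(GAA), N had 4 genes on chromosome 1, none on chromosome 2, and 2, 3 and 7 genes on chromosomes 3, 4 and 5. Serine showed an even higher share on chromosome 1, with 33 of the 37 Ser(AGA), N genes (89.2%), and proline had 30 of the 44 Pro(TGG), N genes there (68.2%).

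**Figure D1:**
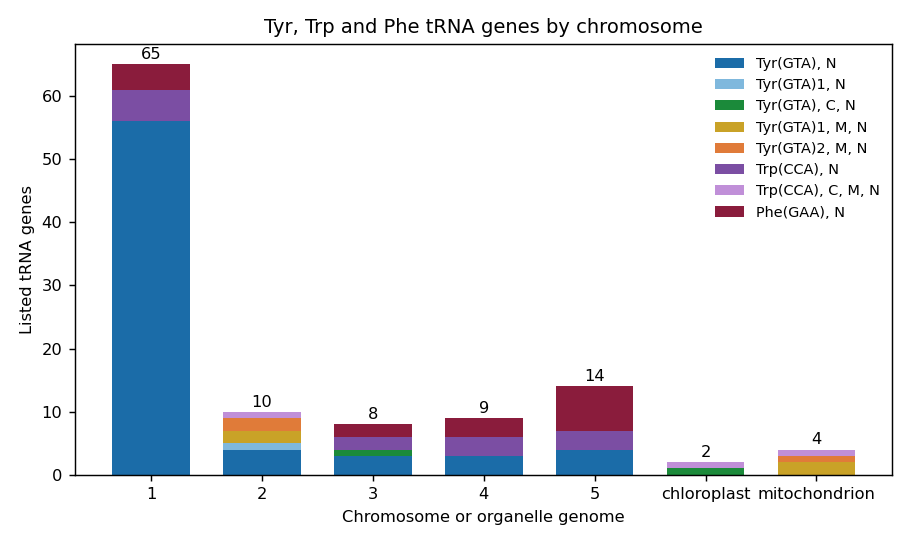
Listed tRNA genes for Tyr, Trp and Phe (y axis) on each chromosome and organelle genome (x axis), stacked by isodecoder, with the total above each bar. Chromosome 1 holds 65 of the 112 genes, of which 56 are Tyr(GTA), N, while Phe(GAA), N has its highest number, 7, on chromosome 5.

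A run was defined as genes for the same amino acid on the same chromosome whose neighbouring starts are at most 5000 bases apart, a start being the lower listed coordinate of a gene on either strand. By this rule 68 of the 112 genes (60.7%) were in 8 runs, against 24.5% of all 687 genes and 17.4% of the 575 genes for other amino acids. The share was 72.5% for Tyr (58 of 80 genes), 37.5% for Phe (6 of 16) and 25.0% for Trp (4 of 16). Of the 58 Tyr genes in runs, 54 came from 1 run. For other amino acids, runs of 6 genes or more were found for serine (27 genes) and for proline (26, 9 and 6 genes).

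The 54-gene Tyr run was the longest in the list. It began with AT1G56740 and ended with AT1G57530, and it held 77.1% of the Tyr(GTA), N genes. With the serine genes between them, the array covered chr1:21268787-21308423 in TAIR10, or 39.6 kb. Read along the chromosome, it repeated the same order 27 times without exception, a Ser(AGA) gene followed by a Tyr(GTA) gene and another Tyr(GTA) gene. The array so contained 81 listed genes, 11.8% of the whole list, 33.8% of those on chromosome 1 and 73% of the Ser(AGA), N genes. In the RefSeq annotation of TAIR10.1, all 81 genes from the first to the last were tRNA genes, with no other gene between them, and the nearest protein-coding genes were AT1G56720 before and AT1G57540 after the array.

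The spacing inside the array was nearly constant apart from 1 of the 3 distances in 5 units. From the start of a Ser gene to that of the first Tyr gene there were 329 to 336 bases (median 333, 27 units), and from the first to the second Tyr gene 430 to 460 bases (median 458, 27 units). From the second Tyr gene to the next Ser gene there were 743 to 745 bases in 21 units and 558 bases in 5. Whole units were thus 1349 to 1537 bases long, with a median of 1531.

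Spacing differed between stretches of the array. The first 7 units all had 335 bases from Ser to Tyr and were the only ones in which the Tyr genes were closer than 455 bases, at 430 bases in units 1, 2, 3, 4 and 6 and at 451 in units 5 and 7. Units 8 to 14 had 329 or 330 bases from Ser to Tyr and 457 or 458 from Tyr to Tyr. From unit 15 to unit 23, short and long units alternated: units 15, 17, 19, 21 and 23 each had 333 bases from Ser to Tyr and 558 to the next Ser, while units 16, 18, 20 and 22 had 330 and 744. The last 4 units, 24 to 27, had 334 or 336 bases from Ser to Tyr, and the Ser genes of units 25 and 27 were listed at 84 bases, against 82 in the other 25 units. The sequence between the genes was not used here, so that the basis of the alternation was not tested.

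**Figure D2:**
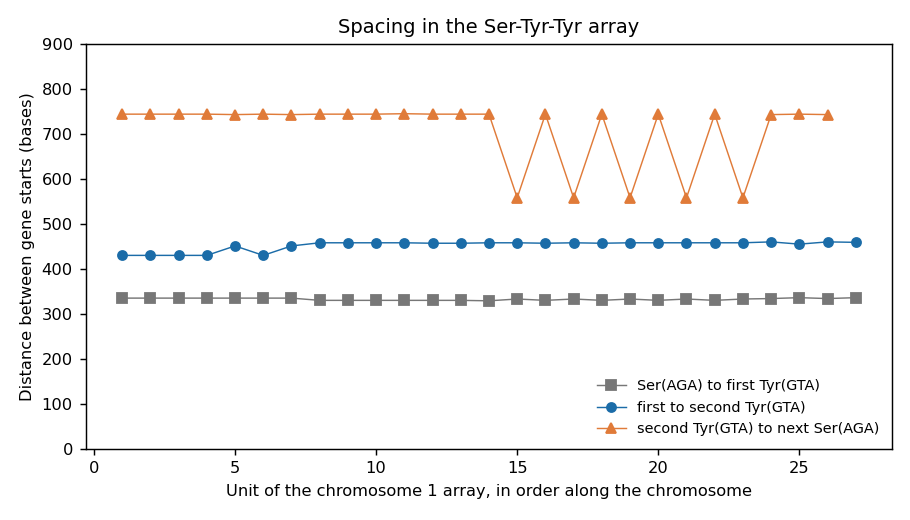
Distance in bases between gene starts (y axis) for the 27 Ser-Tyr-Tyr units of the chromosome 1 array in their order along the chromosome (x axis), from Ser to the first Tyr gene, from the first to the second Tyr gene, and from the second Tyr gene to the next Ser gene. The last distance falls to 558 bases in units 15, 17, 19, 21 and 23 and is 743 to 745 bases in the other 21, and the first 7 units have the shortest Tyr-to-Tyr distances.

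The listed length of the nuclear Tyr genes differed from that of their consensus. Of the 70 Tyr(GTA), N genes, 66 were listed at 37 bases and 4 at 36 bases (AT3G10415, AT3G48515, AT4G22265 and AT4G39195), while the consensus had 73. The first 37 bases of that consensus end with the base behind the anticodon.
First 37 bases of Tyr(GTA), N: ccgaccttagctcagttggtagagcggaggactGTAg
Only 3 of the 100 isodecoders had a median listed length under 60% of the consensus, and the others were the elongator Met-e(CAT), N and Ser(GCT)1, N. The 10 genes of the other Tyr sequences were listed at 75 to 84 bases, the 16 Trp genes at 72 or 74 bases and the 16 Phe genes at 73 bases. The listed coordinates of a Tyr(GTA), N gene so do not cover the length of its consensus, and which part of the gene they cover was not checked, since strand and locus sequence were not used here.

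Outside the array, the 16 remaining Tyr(GTA), N genes were scattered, with 2 on chromosome 1 (AT1G49460 and AT1G52860). The nearest of these to the array was 1583939 bases away, and the closest neighbours among the 16, AT2G36280 and AT2G36860, were 261807 bases apart. The median distance to the nearest other Tyr(GTA), N gene was 2794831 bases, whereas Tyr genes in the array followed each other at a mean of 741 bases.

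The Phe and Trp runs were pairs only. Phe(GAA), N had AT1G68950 and AT1G68970 at 3881 bases, AT5G54365 and AT5G54375 at 2456 bases and AT5G55045 and AT5G55055 at 1829 bases. In the RefSeq gene order of TAIR10.1, no gene stood between the members of the last pair. AT5G55050 was the protein-coding gene before both of them, and how far it extends was not used here. The pairs on chromosome 5 thus held 4 of the 7 Phe genes there. Trp(CCA), N had AT3G03845 and AT3G03852 at 2130 bases and AT5G18005 and AT5G18015 at 3273 bases, and a further Trp gene, AT5G18085, lay 18406 bases beyond the last. The Phe genes outside pairs had their nearest Phe gene at 394317 bases or more. One Tyr gene and one Phe gene also lay close together, AT5G03445 and AT5G03452 on chromosome 5, with starts 3861 bases apart.

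The paired Trp genes shared a type of neighbour, a feature chosen after the annotation was seen. In the RefSeq order of TAIR10.1, a SAUR gene (small auxin up RNA, a family of short auxin-responsive genes that often stand in clusters) was the nearest protein-coding gene on at least 1 side of 5 of the 13 Trp(CCA), N genes, against none of the 16 Phe(GAA), N genes none of the 16 scattered Tyr(GTA), N genes and 1.11% of the 631 listed nuclear tRNA genes (7 genes, these 5 included). These were AT3G03845 between SAUR27 and SAUR73, AT3G03852 behind SAUR26, AT5G18005 before SAUR19, AT5G18015 between SAUR19 and SAUR20, and AT5G18085 behind SAUR24. The 5 genes came from 2 places in the genome, and so they are not independent cases.

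The organellar-type sequences had their genes in the organelles and, apart from 1 gene on chromosome 3, in 1 stretch of chromosome 2. Tyr(GTA), C, N was listed in the chloroplast as ATCG00240 (30323-30406) and in the nucleus as AT3G20365 (chr3:7104309-7104392), which the RefSeq annotation calls a pseudogene. Trp(CCA), C, M, N was listed in the chloroplast as ATCG00610 (66229-66302), in the mitochondrion as ATMG00930 (250080-250153) and in the nucleus as AT2G07748 (chr2:3280863-3280936). Tyr(GTA)1, M, N had ATMG00340 and ATMG00790 in the mitochondrion and AT2G07753 and AT2G07761 on chromosome 2. Tyr(GTA)2, M, N had ATMG00390 in the mitochondrion and AT2G07765 and AT2G07792 on chromosome 2. Tyr(GTA)1, N was the gene AT2G07745 (chr2:3268807-3268886).

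These 6 genes on chromosome 2 lay within 229 kb, from 3268807 to 3497440. All 17 nuclear genes of the isodecoders shared with the mitochondrion, whatever their amino acid, fell between 3.2 and 3.6 Mb of chromosome 2, where 23 genes were listed in all. Arabidopsis chromosome 2 is known to hold a large insertion of mitochondrial DNA near its centromere.

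Gene order and spacing were nearly the same on chromosome 2 and in the mitochondrion. On chromosome 2, the genes for Ser(GCT)1, Tyr(GTA)1, Pro(TGG), Cys(GCA), Asn(GTT), Tyr(GTA)2 and Ser(TGA) followed each other over 9140 bases between the first and the last start. In the mitochondrial genome the order was Ser(GCT), Tyr(GTA)1, Pro(TGG), Cys(GCA), Asn(GTT), Tyr(GTA)2 and Ser(TGA), over 9126 bases. The start of Tyr(GTA)1 lay 394 bases behind that of the Ser gene in both genomes, and Pro(TGG) lay 236 bases behind Tyr(GTA)1 in both. Tyr(GTA)2 lay 918 bases behind Asn(GTT) on chromosome 2 and 910 in the mitochondrion, and no distance in the block differed by more than 8 bases. The Tyr(GTA)1 and Tyr(GTA)2 genes of this block formed the runs of 2 Tyr genes on chromosome 2 (AT2G07761 and AT2G07765, 2582 bases) and in the mitochondrion (ATMG00340 and ATMG00390, 2576 bases).

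**Figure D3:**
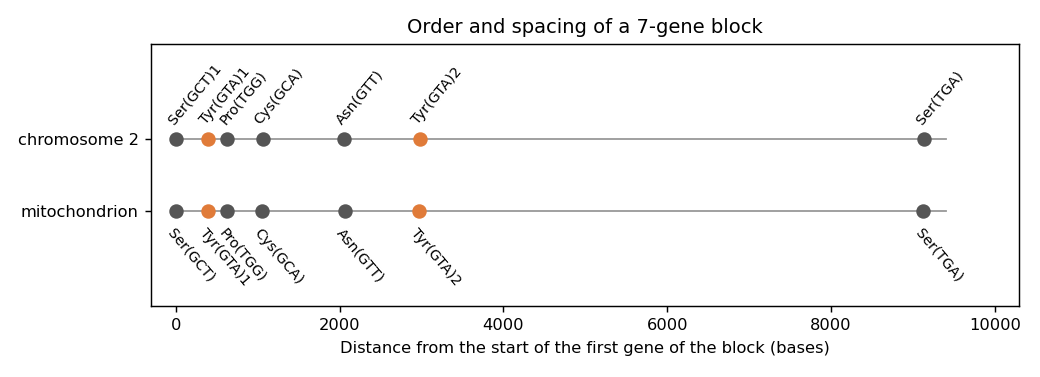
Gene starts in a block of 7 tRNA genes on chromosome 2 (upper line) and in the mitochondrial genome (lower line), as distance in bases from the start of the first gene of each block (x axis), with Tyr genes in orange and other tRNA genes in grey. The order is the same in both genomes, and the blocks extend over 9140 bases on chromosome 2 and 9126 bases in the mitochondrion.

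The other Tyr(GTA)1 and the Trp genes had such counterparts in the opposite direction. AT2G07753 (Tyr(GTA)1) had its start 110 bases from that of a Glu(TTC) gene and 431 bases from that of a Ser(GCT)1 gene on chromosome 2, and its mitochondrial counterpart ATMG00790 lay 113 bases from Glu(TTC) and 393 from Ser(GCT). AT2G07748 (Trp) and a Gln(TTG) gene started 4423 bases apart on chromosome 2, against 4425 bases for ATMG00930 and Gln(TTG) in the mitochondrion. Since a start is the lower coordinate, distances in a block of opposite direction also depend on the gene lengths.

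The largest family, Tyr(GTA), N, had the lowest abundance of the 8 sequences, and the 2-gene Tyr(GTA), C, N had the highest. Read numbers were recovered from the RPM values, with the lowest value above 0 taken as 1 read. On this basis the RNA-seq library had 579400 reads on the 100 sequences, of a total of 2923785 to which RPM values were scaled. The value of 1 read was then 0.342 RPM. All 8 sequences were above 0 RPM, against 87.0% of all sequences. Together they had 5259 reads, 0.908% of the reads on tRNA sequences from 16.3% of the genes, a share that mixes origins. Among sequences found only in the nucleus, those of Tyr, Trp and Phe had 1.2% of the reads from 16.3% of the genes. The intervals below are exact Poisson intervals of 95% on the reads of this library. They cover counting error only, since reads made by PCR are not independent molecules and there was 1 library. How well each sequence was captured by the library was not tested, so that RPM compares reads between sequences and not molecules.

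Among the Tyr sequences, the chloroplast-type Tyr(GTA), C, N had the highest value, 1452.91 RPM (1410 to 1497, from 4248 reads), which was rank 9 of all 100 sequences and 80.8% of all reads of the 3 families. The mitochondrial-type Tyr(GTA)2, M, N had 305.43 RPM (285.7 to 326.1, 893 reads). The other mitochondrial-type sequence, Tyr(GTA)1, M, N, and its nuclear relative Tyr(GTA)1, N had 1.71 RPM each (0.555 to 3.99, 5 reads each). The nuclear Tyr(GTA), N with its 70 genes had 0.34 RPM (0.00866 to 1.91), which was 1 read. The interval of Tyr(GTA), C, N lay above that of Tyr(GTA)2, M, N, which lay above those of the other 3, and no difference among those 3 was detectable at this depth.

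For Trp, too, the organellar-type sequence was above the nuclear one. Trp(CCA), C, M, N had 23.26 RPM (18.1 to 29.5, 68 reads) and the nuclear Trp(CCA), N had 1.03 RPM (0.212 to 3.00, 3 reads), with intervals that did not overlap. Phe(GAA), N had 12.31 RPM (8.62 to 17.0, 36 reads), the highest of the nuclear sequences of the 3 families and rank 9 of the 58 nuclear sequences. It exceeded Trp(CCA), N by 12-fold (3.79 to 60.9, exact binomial interval on the split of the reads). Since the list held no organellar-type Phe sequence, reads from such a tRNA had no sequence of their own. Whether any were counted on Phe(GAA), N or stayed unaligned was not tested. The comparison families Pro(TGG), N and Ser(AGA), N had 11.63 RPM (34 reads) and 2.39 RPM (7 reads).

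Sequences found only in the nucleus so gave 6 of the 5152 Tyr reads (0.116%, exact Clopper-Pearson interval 0.0428 to 0.253%), though they held 88.8% of the Tyr genes. Of these 6 reads, 5 fell on the 1-gene Tyr(GTA)1, N, whose most alike sequence was Tyr(GTA)1, M, N, and 1 on the 70-gene Tyr(GTA), N. For Trp, sequences found only in the nucleus gave 3 of 71 reads (4.23%, 0.880 to 11.9%) from 81.2% of the genes. For Phe all 36 reads fell on the nuclear sequence, which was the only one in the list.

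**Figure D4:**
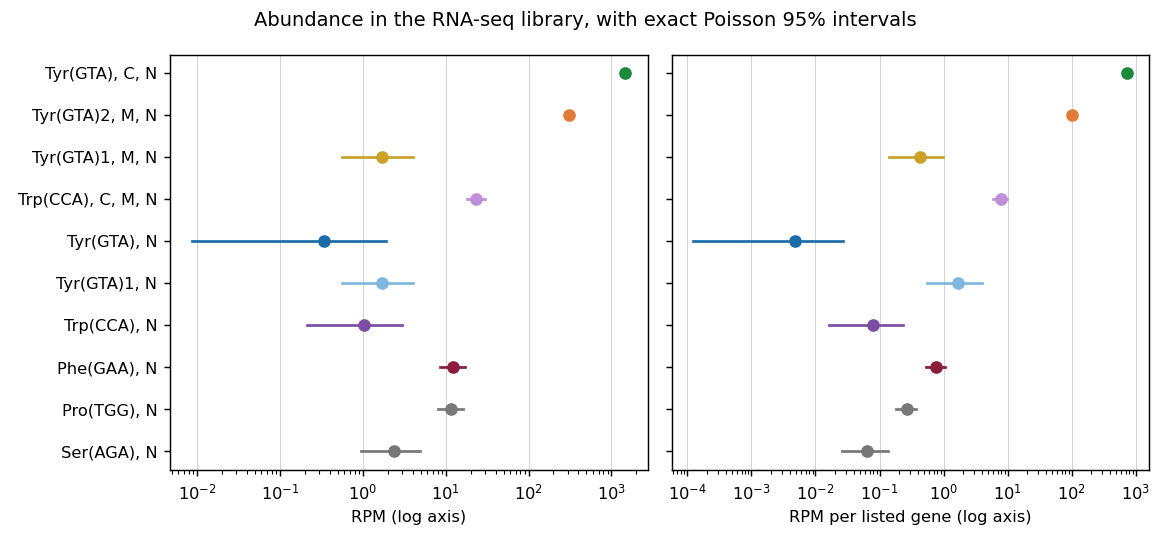
RPM (left) and RPM per listed gene (right), both on log axes, of the 8 Tyr, Trp and Phe sequences and of nuclear Pro(TGG) and Ser(AGA) in the RNA-seq library, with exact Poisson intervals of 95% on the read number as lines. Tyr(GTA), C, N lies highest at 1452.91 RPM and Tyr(GTA), N lowest at 0.34 RPM, and division by gene number widens the distance to 726 against 0.00486 RPM per gene.

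Divided by the number of listed genes, the values of the organellar-type sequences were 726 RPM per gene for Tyr(GTA), C, N, 102 for Tyr(GTA)2, M, N, 7.75 for Trp(CCA), C, M, N and 0.428 for Tyr(GTA)1, M, N. The median of all 16 sequences of ambiguous origin, which is to say of sequences held by the nuclear and an organelle genome, was 6.93, and the highest was 4561. Tyr(GTA), C, N was rank 2, Tyr(GTA)2, M, N rank 5, Trp(CCA), C, M, N rank 7 and Tyr(GTA)1, M, N rank 14 of these 16. With the organellar genes only as copies, the values were 1452.91 for Tyr(GTA), C, N, 305.43 for Tyr(GTA)2, M, N and 11.6 for Trp(CCA), C, M, N, and with the nuclear genes only they were 1452.91, 153 and 23.3. The 24 chloroplast sequences had a median of 77.6 RPM per gene. A read on a sequence of ambiguous origin cannot be assigned to the organelle or the nucleus, and the number of organelle genomes per cell was not part of the division.

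Among the sequences found only in the nucleus, Tyr(GTA)1, N had 1.71 RPM for its 1 gene, Phe(GAA), N had 0.769 RPM per gene (0.539 to 1.07), Trp(CCA), N had 0.0792 (0.0163 to 0.231) and Tyr(GTA), N had 0.00486 (0.000124 to 0.0272). The median of all 58 nuclear sequences was 0.289, so that Phe(GAA), N was above it and Trp(CCA), N and Tyr(GTA), N were below it beyond their counting intervals. With the nuclear median over sequences of at least 5 reads (0.598) or the mean of log2 values with a pseudocount of 1 (0.616) in its place, the value of Phe(GAA), N was not above it beyond its interval. Tyr(GTA), N was the lowest of the 47 nuclear sequences above 0 RPM, followed by Ile(AAT), N at 0.0200. Of the 58, 7 had exactly 1 read, and the largest other family among them had 17 genes. In sum, the nuclear sequences of the 3 families had 0.154 RPM per gene (0.112 to 0.206, 45 reads over 100 genes). The other 54 nuclear sequences had 2.47 (2.39 to 2.55, 3698 reads over 512 genes). Tyr(GTA), N held 70 of the 100 genes and 1 of the 45 reads, so that the sum does not stand for each sequence. The 2 nuclear glutamate (Glu) sequences supplied 2648 of those 3698 reads from 24 genes, and without them, a choice made after the data were seen, the value of the others was 0.736 (0.692 to 0.782, 1050 reads over 488 genes). Across the 58 nuclear sequences, RPM increased with gene number with a Spearman's rho of 0.52, and it was 0.58 without the 4 sequences of these families, as a description across sequences of 1 library that are not independent replicates.

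**Figure D5:**
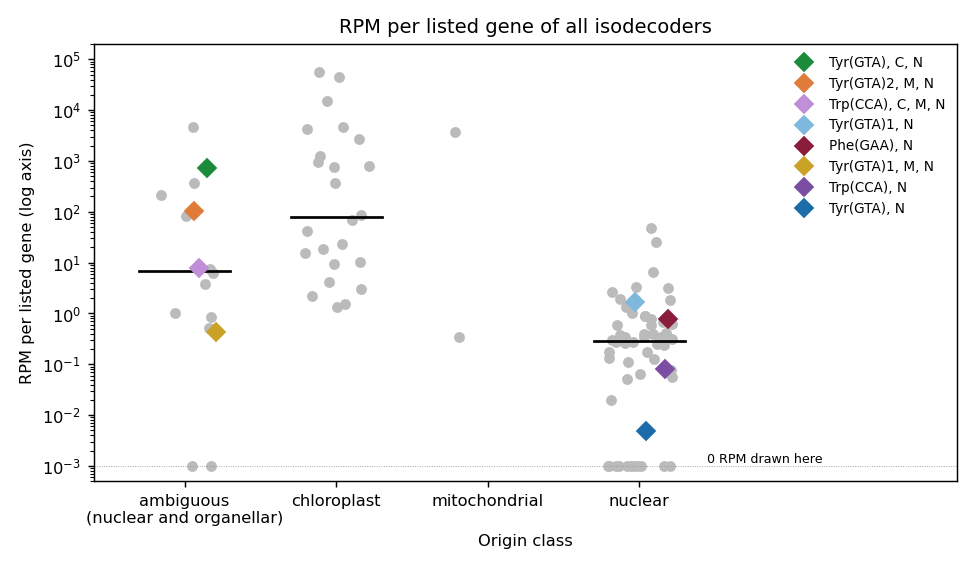
RPM per listed gene (y axis, log) of all 100 sequences by origin class (x axis), with the 8 Tyr, Trp and Phe sequences as coloured diamonds, all others in grey, class medians as black lines (not drawn for the 2 mitochondrial sequences) and values of 0 drawn on the dotted line. Tyr(GTA), C, N and Tyr(GTA)2, M, N lie above the median of their class, and Tyr(GTA), N is the lowest nuclear sequence above 0.

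The ratio per gene between organellar-type and nuclear sequences of the same amino acid was large and, for Tyr, poorly bounded. These are ratios of reads, and equal capture of the sequences by the library was not tested. Tyr(GTA), C, N exceeded Tyr(GTA), N by 4248-fold in RPM (762 to 167826) and by 148680-fold per gene (26671 to 5873910), with exact binomial intervals that are wide because the nuclear sequence had 1 read. Tyr(GTA)2, M, N exceeded Tyr(GTA), N by 893-fold in RPM (160 to 35311) and by 20837-fold per gene (3730 to 823914). Trp(CCA), C, M, N exceeded Trp(CCA), N by 22.7-fold in RPM (7.43 to 112.6) and by 98.2-fold per gene (32.2 to 488). With the 54 genes of the array counted as 1 gene, the ratios per gene of the Tyr sequences were 36108 and 5060. Within the organellar-type Tyr sequences, Tyr(GTA), C, N exceeded Tyr(GTA)2, M, N by 4.76-fold in RPM (4.42 to 5.12), and Tyr(GTA)2, M, N exceeded Tyr(GTA)1, M, N by 179-fold (76.2 to 551), although both mitochondrial-type sequences had genes in the same blocks.

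No site of the 8 sequences was in the methylation table. It listed 59 cytosine positions in 38 isodecoders, and 0 of these belonged to Tyr, Trp or Phe, in A. thaliana or in any of the other 5 species, against 24.0% of all 100 isodecoders with an A. thaliana site at 20% methylation or more. The paper reports methylated A. thaliana tRNAs from the nuclear genome only, so that this share mixes origins. Sequences found only in the nucleus numbered 58, and 4 of them belong to these families. The listed A. thaliana sites at 20% or more were at positions 38, 48, 49, 50 and 72, numbered as in the standard tRNA structure. A missing entry does not separate a cytosine that was not methylated from one with too few reads. In the RNA-seq library, 2 of the 8 sequences had fewer than 5 reads, against 30.0% of all sequences. The methylation values came from the RBS-seq libraries, however, and the coverage of the 8 sequences there was not used here.

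Several of these positions held a cytosine in the consensus sequences. At position 48, where the variable region meets the T stem, 6 of the 8 had a cytosine, the exceptions being Tyr(GTA)1, N and Trp(CCA), N, against 76.3% of the 93 sequences that could be placed. The next base, position 49, was never a cytosine here, and it was a guanine in 5 of the 8, against 48.4% of the 93. Position 38 behind the anticodon was an adenine in all 8. Position 50 was a cytosine in 4 and position 72 in 5 of the 8. Position 72 was counted from the end of the consensus. Its place is uncertain in Tyr(GTA)1, N, which is among the 5 and has a longer end than the others. Of the 43 nuclear sequences with a cytosine at position 48, among them Tyr(GTA), N and Phe(GAA), N, 16 were listed with methylation of 20% or more at that position in A. thaliana.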

How the data were processed

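The sources were a gene list, an abundance table and a methylation table, each deposited as a table of the whole series. The authors collapsed the predicted tRNA genes into 100 consensus sequences, trimmed and filtered the reads and aligned them to these sequences in CLC Genomics Workbench (version not given in the sources used here). RPM values with 2 decimals, from 1 RNA-seq library, were deposited for all sequences. The methylation values were deposited as percent of reads with a cytosine, at positions with at least 5 reads. Coordinates are those of TAIR10. How reads that fit several sequences were treated was not given in the sources used here.

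Genes, runs and distances were computed in Python 3.11.15 with NumPy 2.4.6 and SciPy 1.17.1, alignments with Biopython (match 1, mismatch -1, gap opening -2, gap extension -0.5), and figures with Matplotlib 3.10.9. Read numbers were recovered as the only total, among those from 2898550 to 2985075, for which all 87 values above 0 were whole reads within 0.005 RPM. Anticodon and T loop were located by their letters, and all 37 A. thaliana sites at 20% or more that could be placed fell on a cytosine. Run finding and read recovery were tested on simulated data. Of the 112 genes, 106 were found in the RefSeq gene table of TAIR10.1, 105 as tRNA genes, and all 106 under a name with the same amino acid. The 6 organellar genes were not found there.

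The families, comparisons and lists were chosen with earlier results of these data known. The text names all 8 sequences, the ends of each run, all genes of runs of up to 4, organellar genes and their nuclear counterparts, genes of unusual length, and Pro(TGG) and Ser(AGA) as the next largest families. Other genes are neighbours in the same blocks. With 1 library no test between samples was possible and no p-value is given.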

Additional observations from a re-analysis of the deposited data

How the results depend on the processing

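With neighbours at most 1000 bases apart, 0 Trp genes, 0 Phe genes and 107 of all listed genes were in runs, and the Tyr array broke into runs of up to 4 genes. At 2000 bases the numbers were 0 for Trp and 2 for Phe. The Tyr, Trp and Phe genes in runs numbered 54 to 69 over all 6 alternatives. The median RPM per gene of the nuclear sequences was 0.598 with at least 5 reads and 0.342 above 0 RPM, and the mean of log2 values gave 0.616 with a pseudocount of 1 and 0.348 with 0.1. For the chloroplast sequences these values were 86.9 with at least 5 reads, 157 with a pseudocount of 1 and 145 with 0.1. For sequences of ambiguous origin they were 7.75 with at least 5 reads, 7.68 above 0 RPM, 16.0 with a pseudocount of 1, 9.97 with 0.1, 9.98 with organellar genes only and 19.2 with nuclear genes only as copies. Under each of these, the nuclear value stayed below the ambiguous and the ambiguous below the chloroplast value. The ratios per gene stayed inside their counting intervals with organellar genes only, with 1 RPM added to both values or with the array as 1 gene, and their lowest values were 36108, 5060 and 51.8. The value of Tyr(GTA), N rests on 1 read and that of Trp(CCA), N on 3, and no replicate spread is known. No paired analysis was possible because the abundances come from 1 library and the methylation values are means.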
